A study of Mus musculus with 2 samples.

Results

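The neuromuscular junction genes described here are 10 genes taken by symbol from 22096 gene symbols of the deposited tables: the 5 subunit genes of the muscle acetylcholine receptor (*Chrna1*, *Chrnb1*, *Chrnd*, *Chrng* and *Chrne*) and 5 genes that organise the receptor at the synapse (*Musk*, *Rapsn*, *Dok7*, *Lrp4* and *Agrn*). All 10 had a value in both libraries. The libraries were made from forelimb cells of mouse embryos at E13.5 (strain background given as mixed), sorted for the green reporter ScxGFP. The ScxGFP-positive group and the ScxGFP-negative group had 1 library each, and 6 forelimbs (3 pairs) were pooled for a sample. The reporter follows regulatory sequence of *Scx*, the gene of the tendon transcription factor scleraxis, so both groups carry the same transgene and differ in whether a cell was in the fluorescent gate. With 1 library a group there was no replicate spread and no test, and every difference below compares these 2 libraries only.

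The neuromuscular junction is the synapse between a motor axon and a skeletal muscle fibre. Its receptor is a pentamer of 2 alpha subunits with a beta, a delta and either a gamma subunit, in fetal muscle, or an epsilon subunit, which replaces gamma as the synapse matures. Agrin released by the nerve binds Lrp4, Lrp4 activates the muscle kinase MuSK with the help of the adaptor Dok7, and rapsyn then holds receptors in clusters under the nerve terminal. In limb muscle the receptor genes are switched on when myoblasts differentiate, before innervation is complete.

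Levels are FPKM as the authors deposited them (fragments scaled by transcript length and library size), added up for each symbol. FPKM is a level per length, so genes can be compared with each other within a library. A log2 ratio below is log2((FPKM + 1) in positive cells / (FPKM + 1) in negative cells), which understates the difference of genes at low levels; the quotient of the FPKM values is given beside it. Counts of genes at least 2-fold higher or lower are on this FPKM + 1 scale throughout, on which a gene far under 1 FPKM in both libraries cannot pass. Most members lay at low FPKM. In the positive library 3 members (*Rapsn*, *Chrne* and *Dok7*) lay under 1 FPKM, and those 3 lay under 1 FPKM in the negative library too; the other 7 reached 1 FPKM in a library.

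*Scx* stood at 134 FPKM in the ScxGFP-positive and 1.69 in the ScxGFP-negative library, in the direction of the labels. Of 6 tendon genes 5 were at least 2-fold higher in the positive library. Aligned sequence over the listed transcripts came to 0.687 gigabases for positive and 0.875 for negative cells. The median log2 ratio over 12096 genes at 1 FPKM or more in a library was −0.27, and over all 22090 genes with a value it was −0.037.

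The 4 subunit genes of the fetal receptor were all higher in the ScxGFP-positive library, and *Chrne*, the adult subunit gene, was not. Their summed level was 9.36 FPKM in positive against 1.99 in negative cells, a quotient of 4.71. The subunits belong to one gene family, and the coding stretch of their shared disulphide loop, the Cys-loop of this receptor class, shows how they differ at that place. The stretch was found by a pattern that the subunits share, so it does not measure their divergence over whole coding sequences. It is printed here because the call for each subunit rests on reads being assigned to the right paralog. The lines give 45 bases of coding sequence from GENCODE M21 transcripts (GRCm38), 5′ to 3′ on the coding strand, with the cysteine codons at both ends in capitals.
Chrna1: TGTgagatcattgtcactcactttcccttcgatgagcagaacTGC
Chrnb1: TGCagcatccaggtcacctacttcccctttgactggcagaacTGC
Chrnd: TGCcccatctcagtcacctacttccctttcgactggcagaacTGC
Chrng: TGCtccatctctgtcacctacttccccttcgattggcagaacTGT
Chrne: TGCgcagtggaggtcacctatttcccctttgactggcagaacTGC

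In *Chrna1* the stretch lies in exon 5 on the minus strand (chr2:73571467-73571511), in *Chrnd* and *Chrng* also in exon 5 on the plus strand (chr1:87192583-87192627 and chr1:87207484-87207528), and in *Chrne* in exon 5 on the minus strand (chr11:70618169-70618213). In *Chrnb1* it is split by an intron between exons 5 and 6 (chr11:69793580-69793895, minus strand). *Chrnd* and *Chrng* matched at 40 of the 45 bases, the most of any pair, and *Chrna1* and *Chrne* at 29, the fewest. *Chrng* and *Chrne*, the subunits that replace each other, matched at 34. Over whole coding sequences the longest run of identical bases shared by any pair of subunits was 24 bases, between *Chrnb1* and *Chrne*, and 15 between *Chrng* and *Chrne*. Over whole transcripts, where matches to the opposite strand also counted, the longest was 37 bases, between *Chrna1* and *Chrnd*. The longest coding run of that pair, on the same strand, was 13 bases. The sources used here do not state the read length. Member positions given with values below are those of the deposited tables (mm9) and are not to be compared with the GRCm38 positions of the printed sequences.

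*Chrnb1*, the beta subunit gene, had 4.87 FPKM in positive against 0.958 in negative cells (NM_009601, mm9 chromosome 11, 69597538 to 69609439). Its quotient was 5.08 and its log2 ratio 1.58, the largest among the members with a value above 0 in both libraries. It was the highest of the 5 subunits in both libraries, at 2.60 times the level of *Chrna1* in positive cells and 1.55 times in negative cells.

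*Chrna1*, whose alpha subunit carries the main part of the acetylcholine binding site, stood at 1.87 FPKM in positive and 0.618 in negative cells (NM_007389, chromosome 2, 73401338 to 73418363). Its quotient was 3.03 and its log2 ratio 0.83. *Chrnd*, the delta subunit gene, was close to it, at 1.42 against 0.413 FPKM (NM_021600, chromosome 1, 89087227 to 89096645), a quotient of 3.43 and a log2 ratio of 0.77. Both were thus higher in positive cells by their FPKM but under 2-fold on the FPKM + 1 scale.

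*Chrng*, the gene of the fetal gamma subunit, had 1.205 FPKM in positive cells, on about 5285 aligned bases, and was listed at 0 in negative cells (NM_009604, chromosome 1, 89102386 to 89108410). A value of 0 in such a table can be a failed estimate, though the status of the row was OK, so no fold is given. Its log2 ratio of 1.14 follows from the pseudocount and bounds nothing.

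*Chrne*, the adult epsilon subunit gene, went the other way at very low levels, with 0.0707 FPKM in positive and 0.218 in negative cells (NM_009603, chromosome 11, 70428385 to 70432696). These values rest on about 257 and 827 aligned bases, and the log2 ratio was −0.19. In the positive library *Chrng* stood at 17.04 times the level of *Chrne*. In the negative library *Chrne* was the higher of this pair, with *Chrng* listed at 0. The annotated span of *Chrne* overlapped that of *4930544D05Rik* over 997 bases, a gene listed at 0 in both libraries, and *Mink1* (3.62 against 4.49 FPKM) ended 400 bases away. The library chemistry does not mark strand, so reads of overlapping genes cannot be told apart.

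**Figure D1:**
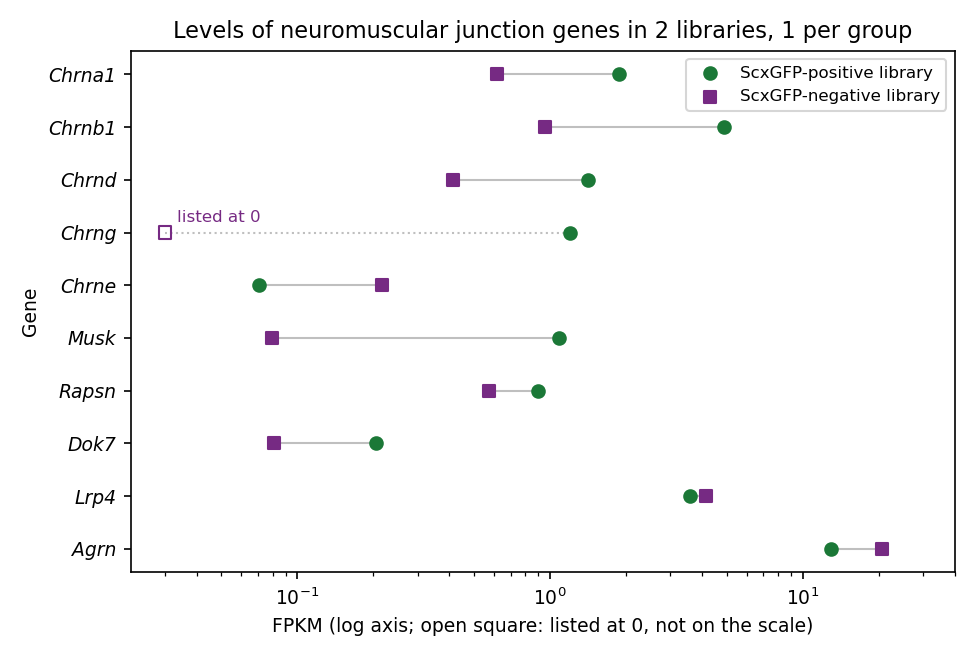
FPKM of the 10 neuromuscular junction genes on a log axis, with a circle for the ScxGFP-positive and a square for the ScxGFP-negative library (1 library each, so no error bars). The fetal receptor genes and *Musk* lie higher in the positive library, *Chrne*, *Lrp4* and *Agrn* lie lower, and the open square marks *Chrng*, listed at 0 in negative cells.

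Among the organiser genes, the muscle-side kinase gene *Musk* was higher in ScxGFP-positive cells, *Dok7* and *Rapsn* lay above their negative values at low levels, and the ligand gene *Agrn* and its receptor gene *Lrp4* lay below theirs. *Musk* stood at 1.08 FPKM in positive and 0.0793 in negative cells over 6 transcripts (chromosome 4, 58298834 to 58387175). The quotient of 13.7 was the largest of the 9 members with values above 0 in both libraries, and the log2 ratio was 0.95. The negative value rests on about 516 aligned bases, against 5891 in the positive library, so little sequence stands behind the quotient.

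The transcripts of *Musk* were divided differently in the 2 libraries. NM_001165996, a short form of 1747 bases whose annotated span ends at 58368965, before that of the others, held 60.8% of the FPKM of *Musk* in positive cells and 38.03% in negative cells. The next in positive cells were NM_001037129 (20.4%) and NM_001037128 (18.8%), and in negative cells NM_001037130 (60.9%). These are estimated shares of overlapping transcripts, and in negative cells they divide the small number of bases given above.

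*Dok7*, the adaptor of MuSK, stood at 0.205 against 0.0814 FPKM (NM_172708, chromosome 5, 35399733 to 35430480), on about 1161 and 483 aligned bases. Its quotient was 2.52 and its log2 ratio 0.16. *Rapsn*, which encodes the receptor-clustering protein rapsyn, stood at 0.900 against 0.576 FPKM (NM_009023, chromosome 2, 90875784 to 90885886), a quotient of 1.56 and a log2 ratio of 0.27.

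*Lrp4*, the agrin receptor gene, stood at 3.59 FPKM in positive and 4.14 in negative cells (chromosome 2, 91297688 to 91354058), a log2 ratio of −0.16. That is 0.10 above the median of all measured genes, and its sign turned with the scaling, as given below. Its long transcript NM_172668 held 66.9% of the level in positive and 69.99% in negative cells. *Lrp4* stood at 3.32 times the level of *Musk* in positive cells and 52.3 times in negative cells.

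*Agrn* was the most abundant member in both libraries, at 12.9 FPKM in positive and 20.6 in negative cells (NM_021604, chromosome 4, 155539399 to 155559244). The positive value was 62.8% of the negative value, a log2 ratio of −0.63, or −0.37 from the median of all measured genes. *Agrn* also had the most sequence behind it, about 202102 and 336702 aligned bases. Agrin is a component of many basement membranes as well as a nerve-derived signal, and the deposited row does not separate its splice forms.

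In order of level, positive cells had *Agrn*, *Chrnb1*, *Lrp4*, *Chrna1*, *Chrnd*, *Chrng*, *Musk*, *Rapsn*, *Dok7* and *Chrne*. Negative cells had *Agrn*, *Lrp4*, *Chrnb1*, *Chrna1*, *Rapsn*, *Chrnd*, *Chrne*, *Dok7*, *Musk* and *Chrng*. *Musk* and *Chrng* thus stood 7th and 6th in positive cells and last but 1 and last in negative cells. With 1 library a group, no neighbours in either order can be said to differ beyond their spread. The level of *Agrn* ranked 1705 among 22090 genes in positive and 1274 in negative cells, and that of *Chrnb1* ranked 4889 and 11592.

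On the FPKM + 1 scale 2 of the 10 members, *Chrnb1* and *Chrng*, were at least 2-fold higher in positive cells and 0 were lower by as much. Of all 22090 genes with a value 2.21% were at least 2-fold higher and 5.46% lower; of the 12096 genes at 1 FPKM or more in a library the shares were 4.03% and 9.98%. Every call for *Chrng* rests on its listed 0 in negative cells, which can be a failed estimate. The median log2 ratio of the 10 members was 0.52. Because most members lie near 1 FPKM, the pseudocount sets how many pass. With a pseudocount of 0.1 the members at least 2-fold higher numbered 5 (*Chrna1*, *Chrnb1*, *Chrnd*, *Chrng* and *Musk*) and the lower 0, where 5.45% of all genes were higher and 12.2% lower. With a pseudocount of 5 the members past 2-fold numbered 0, and the share of all genes was not computed there. By FPKM alone 7 members lay above and 3 (*Chrne*, *Lrp4* and *Agrn*) below their negative value.

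**Figure D2:**
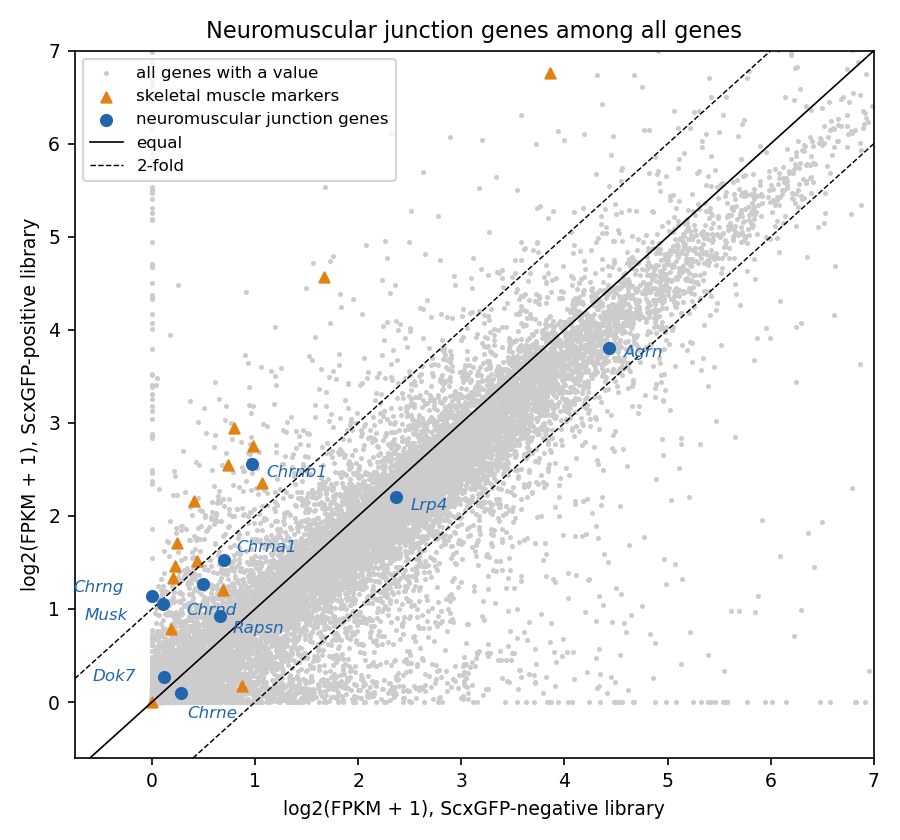
log2(FPKM + 1) of each gene in the ScxGFP-negative (x axis) and ScxGFP-positive library (y axis); grey points are all genes with a value, triangles the 15 skeletal muscle markers, circles the neuromuscular junction genes, and dashed lines mark 2-fold (genes beyond 7 on either axis are not drawn). *Chrnb1* and *Chrng* lie past the upper line, *Chrna1*, *Chrnd* and *Musk* under it, and *Lrp4* and *Agrn* within the main cloud.

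Skeletal muscle markers lay on the same side as the fetal receptor genes. Of 15 markers 11 were at least 2-fold higher in the positive library and 0 lower, with a median log2 ratio of 1.29; *Myf6* was listed at 0 in both. Their summed FPKM was 165 in positive and 21.95 in negative cells, a quotient of 7.504. *Myod1* and *Myog*, regulators of myogenic commitment and differentiation, stood at 4.84 against 0.663 and 5.73 against 0.969 FPKM. The slow troponin gene *Tnnt1* (22.8 against 2.18), the actin gene *Actc1* (107 against 13.6) and the myomaker gene *Tmem8c* (6.71 against 0.737) had the largest log2 ratios in the list on the FPKM + 1 scale, and *Cdh15*, the M-cadherin gene, had the largest FPKM quotient. *Pax3*, a gene of migrating muscle precursors and of neural crest, was the 1 marker below its negative value, at 0.123 against 0.829.

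The quotients of the markers that were above 0 in both libraries ran from 0.148 for *Pax3* to 12.4, with a median of 7.61 over 14 genes. Those of *Rapsn* (1.56), *Dok7* (2.52), *Chrna1* (3.03), *Chrnd* (3.43) and *Chrnb1* (5.08) lay inside that range and below its median. *Pax3* alone set the low end, and the next lowest markers were *Acta1* (2.15) and *Des* (3.78). *Rapsn* lay below both, and *Dok7*, *Chrna1* and *Chrnd* lay between them. The quotient of *Musk* (13.7) lay above the range and rests on about 516 aligned bases in negative cells. Fewer muscle cells in a pool and less RNA per muscle cell cannot be told apart in bulk libraries, and the part of muscle cell numbers in the differences of the receptor genes was not tested.

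Summed markers of epidermis, endothelium and Schwann cells were lower in the positive library, as was *Agrn*. The summed FPKM of 7 epidermal markers was 11.8 in positive and 319 in negative cells, with *Krt5*, a keratin of basal epidermis, at 4.67 against 151. That of 6 endothelial markers was 2.95 against 45.5, with *Cdh5*, the endothelial cadherin gene, at 0.447 against 15.3. That of 6 Schwann cell markers was 2.92 against 30.3, with the glial regulator *Sox10* at 0.788 against 7.36; *S100b* of the same list lay above its negative value, at 0.440 against 0.368. All 7 epidermal markers, 5 of 6 endothelial markers and 4 of 6 Schwann cell markers were at least 2-fold lower in positive cells, and none of these markers was at 0 in a library. Their part in the values of *Agrn* and *Lrp4* was not tested. Those of 5 leukocyte and 4 erythroid markers, also at least 2-fold lower without exception, summed to 4.75 against 274 and 153 against 6332 FPKM.

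Nerve cell bodies lie outside the limb, and the cholinergic genes of motor neurons were near 0. *Chat*, the acetylcholine synthesis gene, was at 0.0512 FPKM in positive cells with a listed 0 in negative cells, and *Mnx1*, a motor neuron regulator, was listed at 0 in both. The vesicular transporter gene *Slc18a3* stood at 0.0197 against 0.0537. The choline transporter gene *Slc5a7* went the other way at 0.136 against 0.00517, on about 1603 and 64 aligned bases. Of 9 motor neuron and axon genes 2 were at least 2-fold higher in positive cells, the neurofilament genes *Nefl* (2.51 against 0.174) and *Nefm* (1.49 against 0.194), and 0 were lower by that much. *Tubb3*, a neuronal tubulin gene, lay on the other side at 0.408 against 0.911. By FPKM alone 6 of the 9 genes lay above their negative value and 2 below. Only 2 of the 9 reached 1 FPKM in a library.

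Of 11 genes of the synaptic matrix and dystroglycan complex 0 were at least 2-fold higher and 2 lower, with a median log2 ratio of 0.065. *Utrn* and *Dag1*, encoding utrophin and dystroglycan, stood at 12.8 against 11.6 and 24.2 against 25.9 FPKM. The 2 lower genes were the laminin chain gene *Lama5* (0.765 against 3.37) and the syntrophin gene *Sntb1* (0.742 against 2.67). *Lamb2*, another laminin chain gene of the list, was above its negative value but under 2-fold, at 6.93 against 4.35. *Ache*, the enzyme that breaks down acetylcholine, stood at 0.200 against 0.111 FPKM, and *Colq*, the collagen tail that anchors it, at 0.09997 against 0.0368; the latter rest on about 647 and 249 aligned bases.

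Of 9 other genes listed for the MuSK pathway, 8 lay within 2-fold on the FPKM + 1 scale and *Pak1*, a kinase gene, was lower at 5.38 against 11.9 FPKM. Across these 9 genes the median log2 ratio came to −0.20. *Dnaja3*, which encodes the MuSK-binding co-chaperone Tid1, stood at 3.07 against 4.76, the adaptor gene *Crkl* at 7.49 against 9.69 and the cortactin gene *Cttn* at 9.55 against 8.81.

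In the neuregulin arm, the second nerve-derived signal to muscle and the axonal signal to Schwann cells, *Erbb3* of 6 genes was at least 2-fold lower and 0 were higher by as much on the FPKM + 1 scale, with a median log2 ratio of −0.38. The ligand gene *Nrg1* stood at 1.11 against 0.158 FPKM, a quotient of 7.01 and a log2 ratio of 0.86. Of its receptor genes, *Erbb3* stood at 1.54 against 5.54 FPKM, *Erbb2* at 8.48 against 12.5 and *Erbb4* at 0.344 against 0.123. The target factor gene *Etv5* stood at 6.56 against 10.2. *Erbb3* is also a gene of Schwann cell precursors, whose markers were lower in the same library; their part was not tested.

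Of 11 neuronal subunit genes of the acetylcholine receptor family 1 reached 1 FPKM, *Chrna4*, at 1.47 against 0.289, a quotient of 5.10 and a log2 ratio of 0.94. In positive cells 2 of the 11 were listed at 0 and in negative cells 5, and 0 passed 2-fold on the FPKM + 1 scale, which their low levels nearly preclude. By FPKM alone 8 lay above and 1 below the negative value. Over the 6 genes above 0 in both libraries the median quotient was 2.35, near the 2.52 over 9 members.

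**Figure D3:**
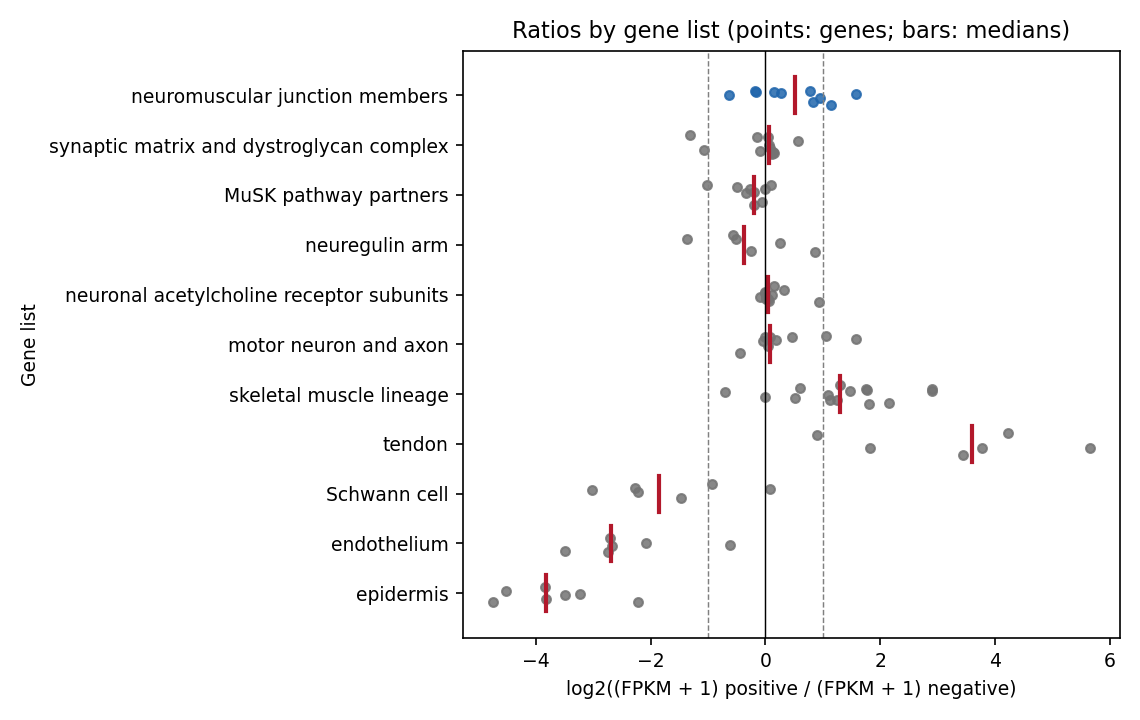
log2 ratio on the FPKM + 1 scale for each gene (points) of the neuromuscular junction set and of 10 other gene lists, with list medians as bars and 2-fold as dashed lines. The neuromuscular junction genes spread from −0.63 to 1.58, and their median of 0.52 lies between that of the skeletal muscle markers (1.29) and those of the other synaptic lists (−0.38 to 0.065). This scale draws low genes toward 0. The median FPKM quotient was 2.52 over 9 members and 2.35 over 6 neuronal receptor subunits. It was 1.06, 0.851 and 0.751 in the synaptic matrix, MuSK pathway and neuregulin lists.

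Promoter sequences were compared for letters bound by 2 factor classes with a known part in this gene family. Myogenic factors such as MyoD and myogenin bind E-boxes (CANNTG), and ETS factors such as GABP bind the N-box (CCGGAA) of synapse-specific promoters. RefSeq promoter windows (GRCm38.p6) were at hand for 7 of the 10 members, in 9 windows; *Chrnd*, *Rapsn* and *Lrp4* have no entry. Each window was read over the 250 bases before the annotated start on both strands. Some of these bases lie in annotated exons. They number 126 for *Chrnb1* (exons of *Chrnb1* and *Fgf11*), 167 for the *Dok7* window without an E-box, and 22 or fewer for every other member window. The stretches below are printed for the receptor genes with a window and for *Musk*, to set the promoters of the fetal receptor genes beside that of *Chrne*, 5′ to 3′ on the gene's strand, with E-boxes in capitals and, in *Chrne*, also the N-box.
Chrna1: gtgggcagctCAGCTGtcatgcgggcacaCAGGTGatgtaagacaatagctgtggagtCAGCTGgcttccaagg
Chrnb1: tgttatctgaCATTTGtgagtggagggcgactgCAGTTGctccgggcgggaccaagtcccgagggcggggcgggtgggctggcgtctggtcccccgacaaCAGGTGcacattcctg
Chrng: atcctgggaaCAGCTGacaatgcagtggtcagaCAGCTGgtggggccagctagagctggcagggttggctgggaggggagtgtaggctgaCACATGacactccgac
Musk: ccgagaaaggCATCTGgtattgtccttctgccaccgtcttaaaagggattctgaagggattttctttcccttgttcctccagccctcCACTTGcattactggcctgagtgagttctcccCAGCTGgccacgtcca
Chrne: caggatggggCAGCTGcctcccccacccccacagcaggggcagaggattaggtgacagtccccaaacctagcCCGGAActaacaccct

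These stretches lie at chr2:73580367-73580440 (minus strand, *Chrna1*), chr11:69795951-69796066 (minus, *Chrnb1*), chr1:87205646-87205751 (plus, *Chrng*), chr4:58285775-58285909 (plus, *Musk*) and chr11:70619255-70619342 (minus, *Chrne*), all upstream of the annotated start and outside GENCODE exons. *Chrna1*, *Chrnb1*, *Chrng* and *Musk* each held 3 E-boxes, and 12.2% of all 32851 windows held 3 or more. *Chrna1* and *Chrng* each held 2 copies of CAGCTG, an E-box form preferred by myogenic factors, and 1.26% of all windows held 2 or more; *Musk* and *Chrne* held 1 copy, and 13.0% of all windows held at least 1. The form CACCTG, or its complement CAGGTG, was present once in *Chrna1* and once in *Chrnb1*, and 17.2% of windows held it.

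*Chrne* held 1 N-box, which starts 76 bases before the annotated start, and 12.03% of windows held at least 1; the other 8 member windows held 0. *Chrne* and 1 window each of *Agrn* and *Dok7* held 1 E-box, and the other 2 member windows held 0. Over all windows 66.2% held at least 1 E-box and 31.8% at least 2. CACCTG and CAGCTG are themselves E-boxes, so these counts overlap. Presence of the letters describes the sequence and does not show binding.

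**Figure D4:**
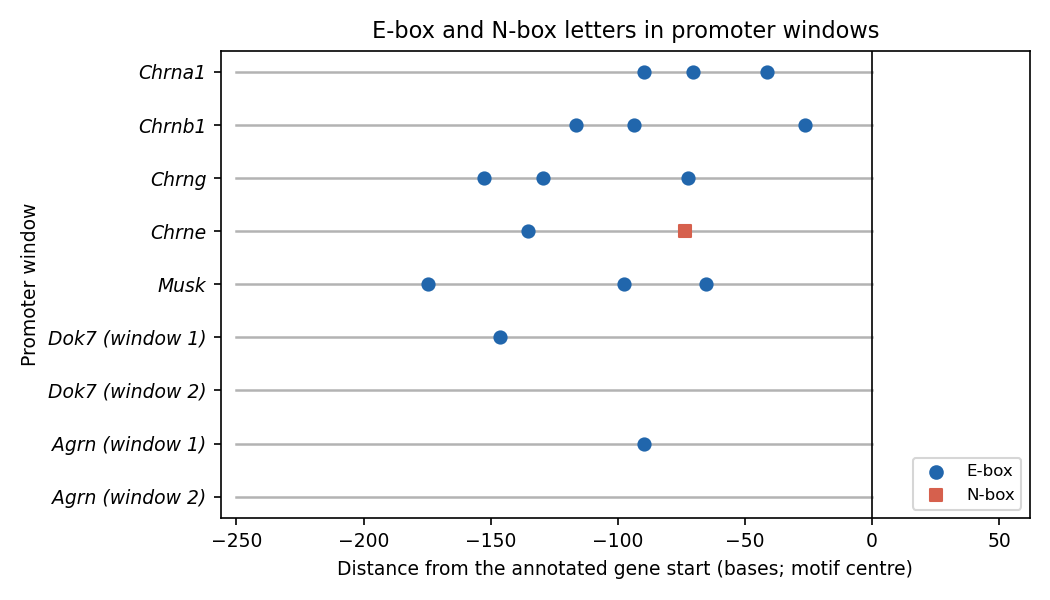
Positions of E-box (circles) and N-box (square) letters in the 250 bases before the annotated start for 9 RefSeq promoter windows of 7 members, by distance of the motif centre from the start in bases. *Chrna1*, *Chrnb1*, *Chrng* and *Musk* hold 3 E-boxes each, and the N-box is in *Chrne*.

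*Chrnd* and *Chrng* lie side by side on chromosome 1, 5740 bases apart with 0 listed genes between them. Of their outer neighbours *Eif4e2*, 2078 bases beyond *Chrng*, stood at 7.34 against 8.26 FPKM, and *1700027L20Rik*, 2247 bases before *Chrnd*, was listed at 0 against 0.116. *Chrnb1* lay 9 bases from *Zbtb4* (1.84 against 1.56 FPKM) and 2264 from *Fgf11* (0.866 against 0.811), both within 2-fold. The neighbours of *Musk* were both at least 2-fold higher in positive cells, *Svep1* at 3.82 against 0.569 and *Lpar1* at 22.6 against 7.55 FPKM, at distances of 79365 and 60948 bases. *Rapsn* and *Lrp4* lie 412 kilobases apart on chromosome 2, with 12 symbols between them.

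Genes closest to *Chrnb1* in level were sought over the 2 libraries, by the distance between pairs of log2(FPKM + 1) values among 18997 genes. The 5 nearest were *Fst* (5.08 against 0.924 FPKM), which encodes the activin antagonist follistatin, *Mylpf* (4.72 against 1.03), a myosin light chain of fast skeletal muscle, *Lrrc32* (4.53 against 0.964), *Adamts2* (4.75 against 0.833), a procollagen protease, and *Foxp2* (4.61 against 0.856), a forkhead factor. Over 2 libraries such likeness means only similar values in both.

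The scaling of the libraries moved the ratios, as the plot of ratios by setting shows. Under TPM that of *Chrne* moved down, from −0.19 to −0.47, and those of the other 9 members moved up. In 1 scaling the median FPKM ratio of genes at 1 FPKM or more in both libraries was set to 1. There *Musk* reached a log2 ratio of 1.04 and *Lrp4* turned to the positive side, and the members at least 2-fold higher numbered 3. With FPKM rescaled to equal sums (TPM) they numbered 5 and the median log2 ratio of the members was 1.29, a scale on which the pseudocount weighs less. The share of all genes past 2-fold was not computed under these scalings, so the counts stand without a background. The median of all measured genes moved from −0.27 to −0.026 and 0.10 under these scalings. *Lrp4* ranged from −0.16 to 0.35 over 6 scalings, and *Agrn* stayed below 0, from −0.63 to −0.11. *Chrne* also stayed below 0, from −0.51 to −0.15, and *Chrna1*, *Chrnb1*, *Chrnd*, *Musk*, *Rapsn* and *Dok7* stayed above 0 in each.

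**Figure D5:**
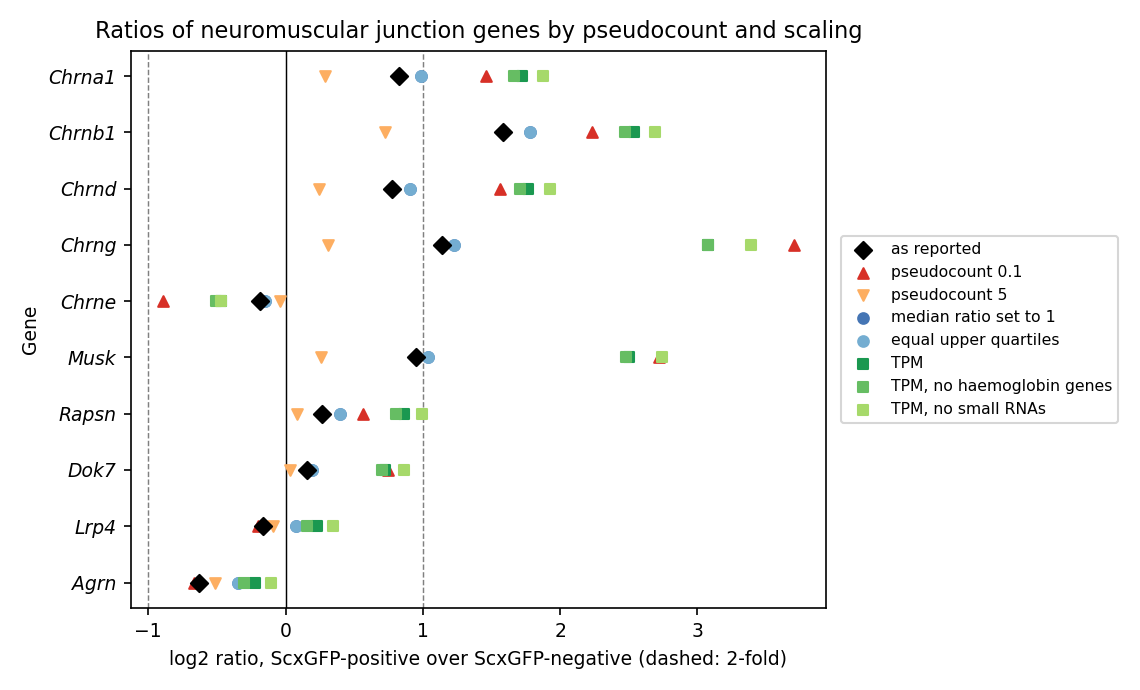
log2 ratio of each neuromuscular junction gene as reported (diamonds), with pseudocounts of 0.1 and 5 (triangles), with the median ratio set to 1 or equal upper quartiles (circles, which nearly coincide) and as TPM (squares); dashed lines mark 2-fold. The fetal receptor genes and *Musk* keep their side of 0 and cross 2-fold with the setting, *Lrp4* crosses 0, and the value of *Chrng* is set by the pseudocount because it is listed at 0 in negative cells.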

How the data were processed

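RNA of 2 sorted forelimb populations was sequenced after amplification with a NuGEN Ovation kit, per the labels' protocols. Bowtie 0.12.7, TopHat 1.4.1 and mm9 are named in the submitters' processing notes; the sources used here give no version of the abundance program. The FPKM and the coverage of each transcript are the authors' deposited values, per the file headers. FPKM was summed per symbol, 6 symbols with a row of status FAIL got no value, and all 16 member rows had status OK. Coverage times length gave aligned bases. Fragment counts were not recovered, so depth is given in bases and no interval is given. Starts were raised by 1, since length equalled end minus start in 3284 rows. Ratios used a pseudocount of 1. The ratio code was tested on simulated data. Members, lists and motifs were chosen with earlier results of these data known. The text names all members, *Scx*, up to 3 measured genes of each list with the largest ratios (most are given), 10 genes whatever their value, 5 genes nearest to the subunit with the largest ratio, and neighbours. Genes of the marker lists named beyond this (*Pax3*, *Myf6*, *Acta1*, *Des*, *Chat*, *Mnx1*, *Slc18a3*, *Slc5a7*, *Tubb3*, *S100b* and *Cdh15*) were chosen after their values were seen. GENCODE M21 and RefSeq sequences are of GRCm38, and no position was converted. Python 3.11.15 and pandas 2.3.3 were used.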

Additional observations from a re-analysis of the deposited data

How the results depend on the processing

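With 1 library a group, no replicate could be left out and the limits are those of single, shallowly covered values. The members at least 2-fold higher numbered 2 as reported, 5 with a pseudocount of 0.1, 5 with each form of TPM (all genes, without haemoglobin genes, without small RNAs), and 0 with a pseudocount of 5 or a minimum of 5 FPKM, which leaves *Agrn* alone. The median log2 ratio of the members was 1.29 with TPM, 1.23 without haemoglobin genes, 1.43 without small RNAs and −0.63 for *Agrn* alone. Members at least 2-fold lower numbered 0 in every setting. Taking the highest transcript or OK rows only left the count at 2. The share of all genes past 2-fold was computed only for FPKM with pseudocounts of 1 and 0.1. The counts under other settings have no such share beside them and are not a result about the members.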
